A study of Mus musculus with 12 samples.

Results

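The genes described here encode the main families of axon guidance cues and their receptors: semaphorins and plexins, Slits and Robos, netrins and Unc5 receptors, and ephrins and Eph receptors. They were chosen by name, as single-gene symbols starting with Sema, Plxn, Epha, Ephb, Efna, Efnb, Robo or Unc5, or with Slit or Ntn and a digit, each by its probe set with the highest mean over the 12 samples. This gave 67 of the 18820 genes that had a probe set of their own. Transcript levels had been measured with 1 Affymetrix array per animal in micro-dissected medial prefrontal cortex of C57BL/6N mice aged 12 weeks. Mothers of 6 of the offspring had been given poly(I:C) intravenously, a synthetic RNA of double-stranded form used in place of a viral infection, at 5 mg/kg on gestation day 17, and mothers of the other 6, the controls, had received saline. All offspring had gone through behavioural tests before the tissue was taken. The labels call the samples biological replicates but name neither litter nor sex, so animals of a group may share a mother and the p-values reflect no more than the variation among these 12. The 6 offspring of poly(I:C)-treated mothers are called exposed, numbered as in the labels. The comparison asks whether prenatal immune activation leaves a difference in the adult cortex.

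Guidance molecules steer growing axons by attraction or repulsion through receptors on the growth cone. Semaphorins act through plexins, the secreted class 3 members with neuropilins as co-receptors. Slits act through Robo receptors, netrins through Dcc for attraction and Unc5 receptors for repulsion, and ephrins, which are anchored in the membrane, through Eph receptor tyrosine kinases. In the adult cortex many of these molecules remain expressed, where they are known for roles in dendritic spines, synapses and the limits of axon growth.

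Values are log2 expression, and differences are exposed minus control on that scale. Array medians lay between 5.15 and 5.21, and any pair of arrays had a correlation of 0.997 to 0.999 over the tested probe sets, which are not independent replicates. The measured excitatory neuron markers Slc17a7, Neurod6 and Camk2a lay above the 75th percentile of tested probe sets, and of 3 markers of other organs Alb and Ins2 lay below the 25th and Apoa1 at the 40th. Xist, which marks the inactive X chromosome of females, lay between 3.13 and 3.22 in all 12 animals, while Kdm5d of the Y chromosome lay between 6.18 and 6.50.

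Prenatal poly(I:C) exposure was followed by a difference past the adjusted threshold in 1 of the 67 guidance genes. Sema3a, which encodes a secreted repellent that acts through neuropilin-1 and A-type plexins, rose 1.16-fold. The other 66 did not pass. A higher mean was found for 30 of the 67 (44.8%, beside 52.0% of all tested probe sets) and a lower one for 37. In the limma fit, an adjusted p under 0.05 was reached by 2.83% of the 23099 tested probe sets and by 1.49% of the guidance genes, a share no higher than the background. By direction, 1 guidance gene rose where 2.02% of probe sets did, and 0 fell where 0.805% did (5 had a lower mean at an unadjusted p under 0.05). At an unadjusted p under 0.05 the shares were also close, with 14 guidance genes (20.9%) against 19.1% of all tested probe sets. Of these 14, 9 had a higher mean in exposed animals (13.4%, background 11.7%) and 5 a lower one (7.46%, background 7.33%). The split was 4 to 11 after quantile normalization and 4 to 8 after centring each array on its median. All probe sets past the adjusted threshold also moved, from 467 higher and 186 lower to 239 and 285 after quantile normalization. After median centring they were 298 and 232. The groups did not overlap in 0 of the 67 guidance genes, against 2.37% of all tested probe sets. A change of 1.2-fold was reached by 0 guidance genes, Unc5b coming closest, and by 0.866% of all tested probe sets.

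The data bounded most of these genes closely. The moderated standard error (SE) of a difference ran from 0.029 to 0.077 over the guidance genes, with a median of 0.042. For 63 of the 67 the 95% interval of the difference, not adjusted for the number of genes, lay wholly within 1.2-fold in either direction, which is 0.26 on the log2 scale. The intervals of Sema3a, Unc5b, Efnb3 and Robo3 reached past it. The median difference over the 67 genes was -0.009, against 0.003 over all tested probe sets, and the median absolute difference was 0.038 against 0.044. The mean over the 67 genes was 6.85 ± 0.03 among controls and 6.84 ± 0.01 in exposed animals (SD, n = 6 each), and the values of the 6 exposed animals, from 6.83 to 6.86, lay inside the control range of 6.82 to 6.88.

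**Figure D1:**
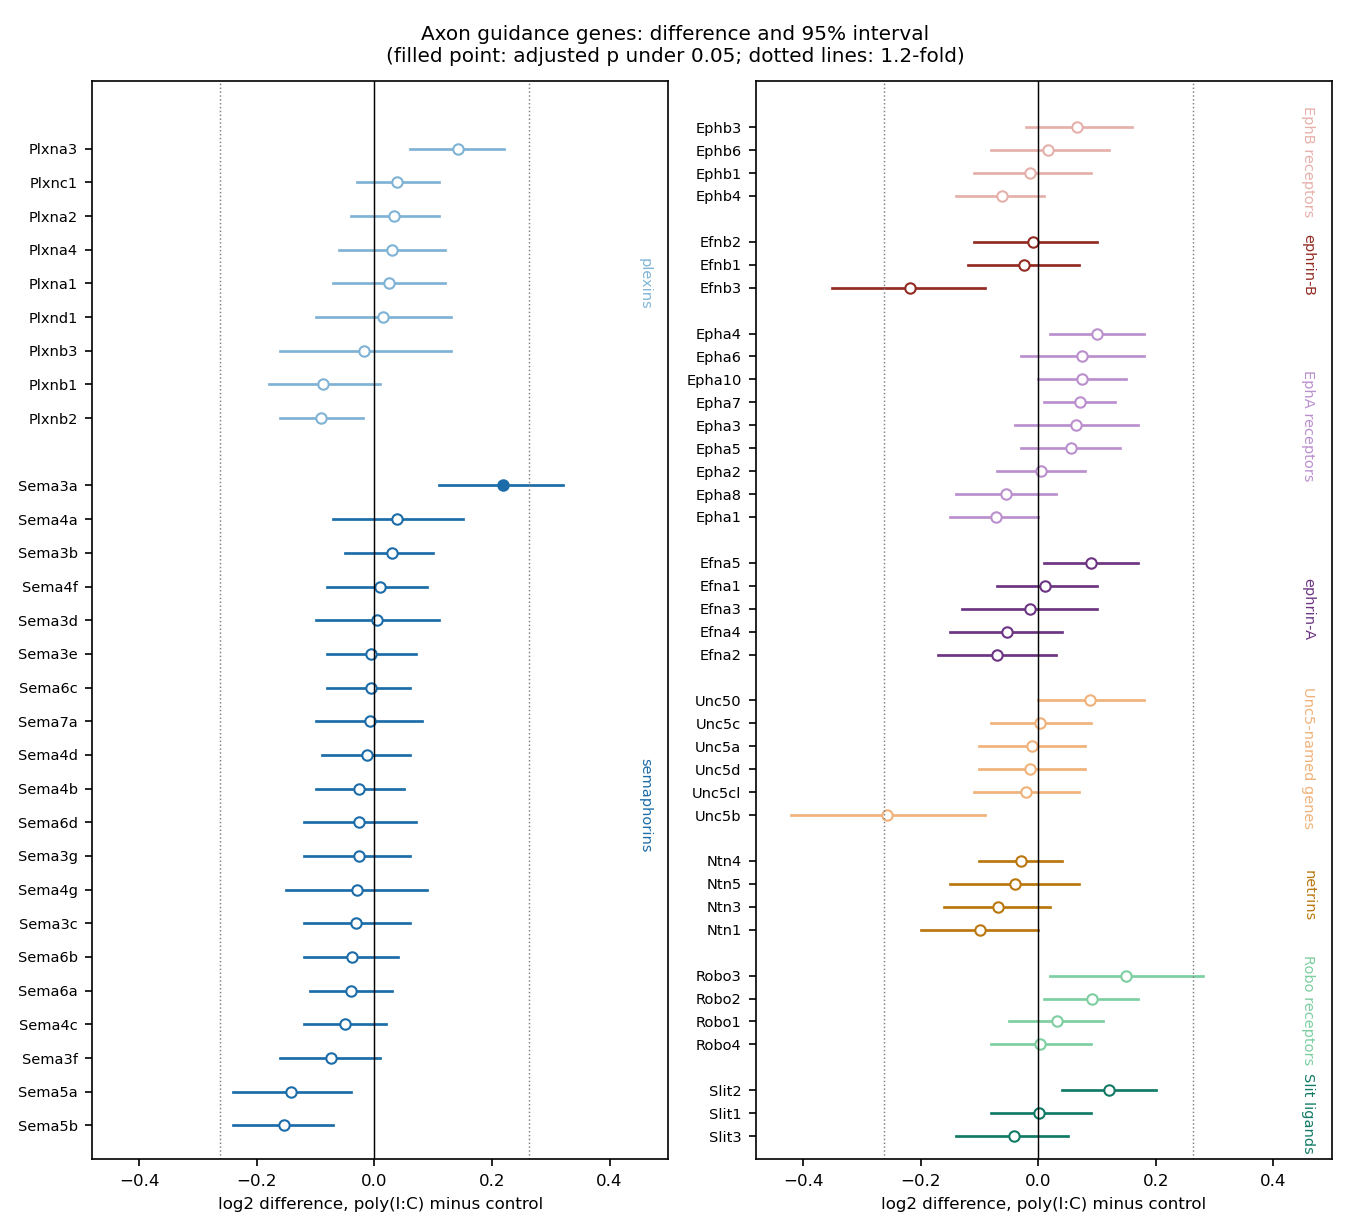
Log2 difference between poly(I:C) and control offspring for each of the 67 guidance genes, grouped by family, with its 95% interval from limma (n = 6 animals a group). Sema3a alone is drawn as a filled point, for an adjusted p under 0.05, and no point lies beyond the dotted lines at 1.2-fold.

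Among the 20 semaphorins, Sema3a rose and the other 19 did not pass. In controls Sema3a (probe set 10519717) had a lowest value of 6.61, a median of 6.75 and a highest of 6.83, and in exposed animals 6.83, 6.95 and 7.08. The groups met at one end only, since 5 of the 6 exposed animals lay above every control and exposed 2 lay level with controls 5 and 6. The means were 6.74 ± 0.09 and 6.96 ± 0.10 (SD, n = 6 each), a difference of 0.22 ± 0.05 (SE; limma adjusted p = 0.0298). The call was lost when any of controls 1 to 3 or of exposed 1, 3, 4 and 5 was left out (adjusted p from 0.0503 to 0.0702). It was lost also after median centring (0.0524), over all rows of the table and without variance moderation. Of 24 alternatives Sema3a passed in 14, and its limma adjusted p was at most 0.096. The difference itself stayed between 0.19 and 0.24 whichever animal was left out.

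Sema3a was not joined by its class. The 6 other class 3 semaphorins, all secreted, had differences from -0.07 to 0.03, and none passed. Sema3f, which acts mainly through neuropilin-2, differed by -0.07 ± 0.04 (SE; limma adjusted p = 0.317), with 3 of 6 exposed animals below every control. Sema3d, which lies next to Sema3a in the order of protein-coding genes in RefSeq GRCm38.p6, differed by 0.00 ± 0.05. Sema3e, a ligand of plexin-D1 that needs no neuropilin, differed by -0.01 ± 0.03.

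The pair of class 5 semaphorins, membrane proteins with thrombospondin repeats, both had lower means in exposed animals without passing. Sema5b (probe set 10435415) ran from 6.08 through a median of 6.17 to 6.27 in controls, and from 5.95 through 6.02 to 6.13 in exposed animals. Of the exposed animals 4 lay below every control, and the 2 others lay above control 1 alone. Its difference was -0.15 ± 0.04 (SE; limma adjusted p = 0.0516), just outside the threshold. Sema5b passed after quantile normalization (0.0407), after median centring (0.0479) and without control 1 or exposed 5 (0.0416 and 0.0340), and its value stayed between -0.18 and -0.14 under every alternative tried. Sema5a ran from 7.88 through 7.99 to 8.10 in controls and from 7.71 through 7.86 to 7.98 in exposed animals, so that the upper part of the exposed range lay inside the control range. It differed by -0.14 ± 0.05 (limma adjusted p = 0.111).

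The remaining semaphorins lay close to 0. The 6 class 4 members, transmembrane proteins, had differences from -0.05 to 0.04. Sema4d, a ligand of plexin-B1 known from oligodendrocytes, was at -0.01 ± 0.04, with all 6 exposed animals inside the control range of 7.16 to 7.34. The 4 class 6 members differed by -0.04 to -0.01, and Sema7a, a lipid-anchored semaphorin that binds plexin-C1, by -0.01 ± 0.04. Over all semaphorins 15 of 20 had a lower mean, 17 after quantile normalization or median centring, and between 11 and 17 with 1 animal left out. The family mean was 6.83 ± 0.03 in controls and 6.81 ± 0.02 in exposed animals (SD, n = 6 each).

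None of the 9 plexins, the signalling receptors of semaphorins, passed. Plxna3, a receptor for class 3 semaphorins with neuropilins and also for class 5 semaphorins, ran from 6.31 through a median of 6.36 to 6.47 in controls and from 6.45 through 6.50 to 6.62 in exposed animals. In 5 of 6 exposed animals it lay above every control, the exception being exposed 3. The difference was 0.14 ± 0.04 (SE; limma adjusted p = 0.0583), and it passed without control 5 (0.0387). The other A-type plexins, Plxna1, Plxna2 and Plxna4, each differed by 0.03, with intervals that held 0. All 4 A-type plexins had a higher mean in every fit with 1 animal left out and after both rescalings, but only 2 of 4 without controls 5 and 6 together.

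By their brightest probe sets the 3 B-type plexins all had lower means, also after both rescalings. Of the 3, 2 did without control 2, control 6 or exposed 4 and without controls 5 and 6 together. A second, dimmer probe set of Plxnb1 had a higher mean (0.06). Plxnb2 ran from 7.65 through 7.75 to 7.79 in controls and from 7.58 through 7.64 to 7.68 in exposed animals, of which 4 lay below every control. Its difference of -0.09 ± 0.03 (SE) did not pass (limma adjusted p = 0.129), except after quantile normalization (0.0421). Plxnb1, the receptor of Sema4d, differed by -0.09 ± 0.04 (adjusted p = 0.294), and Plxnb3, known from oligodendrocytes, by -0.02 ± 0.07. Plxnb3 was among the genes with the widest spread between animals, from 6.15 to 6.6 in controls, which the exposed animals did not leave. Plxnc1 and Plxnd1 differed by 0.04 ± 0.03 and 0.01 ± 0.05. The neuropilins did not pass either: Nrp1, the co-receptor of Sema3a, differed by 0.03 ± 0.05 and Nrp2 by -0.07 ± 0.07.

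**Figure D2:**
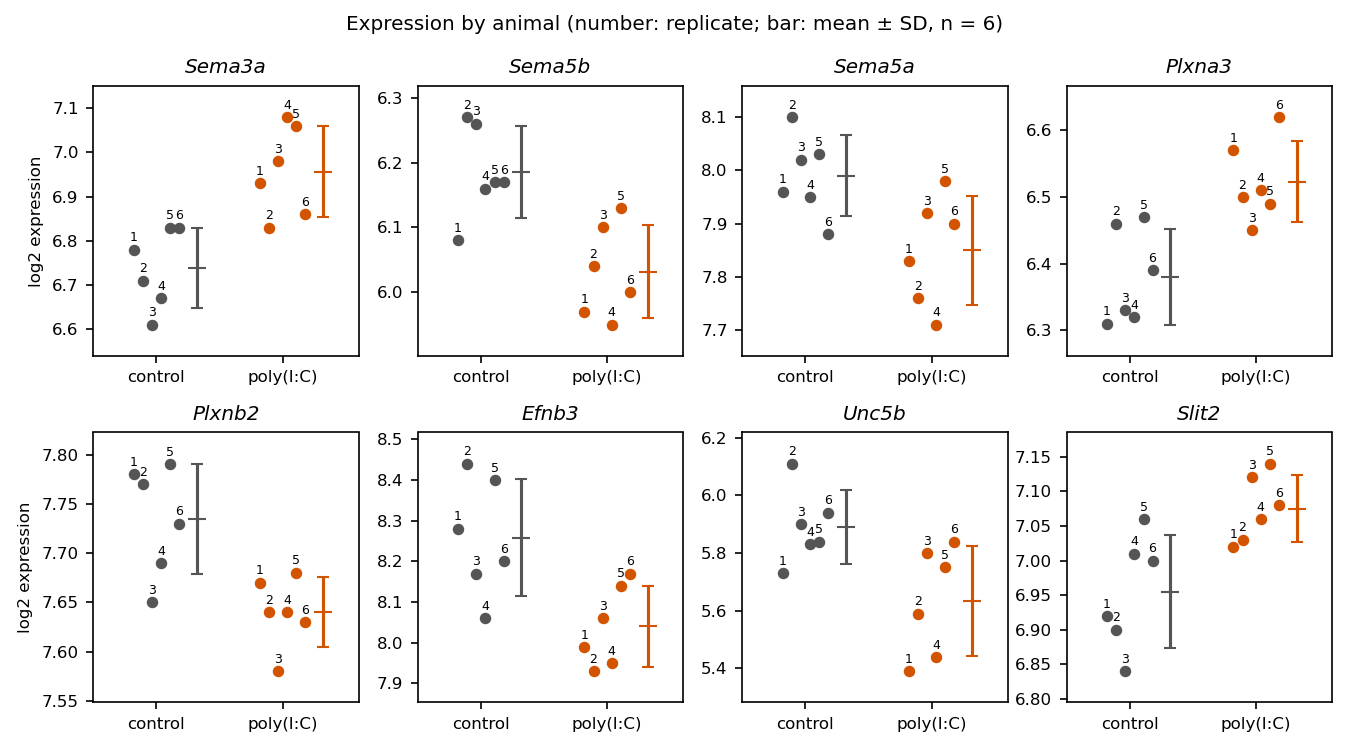
Log2 expression in each animal for 8 guidance genes, with the replicate number above each point and the mean ± SD of the group (n = 6) beside it; each panel has its own axis. Sema3a passed the adjusted threshold and the other 7 did not, and in every panel at least 1 animal of a group reached the range of the other.

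No Slit or Robo passed. Slit2, a secreted repellent, ran from 6.84 through a median of 6.96 to 7.06 in controls and from 7.02 through 7.07 to 7.14 in exposed animals. Exposed animals were in the upper part of the scale, with 4 of 6 above every control, and the difference was 0.12 ± 0.04 (SE; limma adjusted p = 0.0975). Slit1 and Slit3 differed by 0.00 ± 0.04 and -0.04 ± 0.04.

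Among the Robo receptors, Robo2 differed by 0.09 ± 0.04 and its neighbour in the genome, Robo1, by 0.03 ± 0.04 (limma adjusted p = 0.181 and 0.688). Both are neuronal receptors of Slits. Robo3, known for its part in midline crossing, had the largest Robo difference, 0.15 ± 0.06 (adjusted p = 0.2), but was dim, at the 27th percentile of tested probe sets, with controls spread from 4.18 to 4.54. Robo4, known from endothelial cells, differed by 0.00 ± 0.04. The family mean of the 4 Robo genes was 6.68 ± 0.05 in controls and 6.75 ± 0.02 in exposed animals (SD, n = 6 each). Exposed animals, from 6.73 to 6.77, overlapped the upper end of the control range of 6.65 to 6.77. All 4 had a higher mean, which became 3 of 4 after quantile normalization or median centring and when any of controls 3 and 4 or of exposed 1, 2, 5 and 6 was left out.

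Netrins and their receptors gave 1 larger difference that did not pass. Unc5b, a repulsive netrin receptor also known from vessel sprouting, ran from 5.73 through a median of 5.87 to 6.11 in controls and from 5.39 through 5.67 to 5.84 in exposed animals. Animals exposed 1, 2 and 4 lay below every control, at 5.39, 5.59 and 5.44, while the other 3 lay inside the control range. The difference of -0.26 ± 0.08 (SE) was the largest among the 67 genes in size and also had the largest SE (limma adjusted p = 0.0780). With 1 animal left out it stayed between -0.30 and -0.21 and did not pass (adjusted p from 0.0591 to 0.165).

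By their brightest probe sets the 4 netrins all had lower means, from -0.10 to -0.03, as they did after both rescalings and with any 1 animal left out. A second probe set of Ntn3, nearly as bright, had a higher mean (0.06). Ntn1, the secreted cue that attracts through Dcc and repels through Unc5, ran from 5.59 through 5.63 to 5.71 in controls and from 5.38 through 5.54 to 5.72 in exposed animals. Of these 4 lay below every control and exposed 2 above every control. Its difference was -0.10 ± 0.05 (SE; limma adjusted p = 0.273). Dcc itself differed by -0.01 ± 0.06 and Neo1, a related receptor, by 0.02 ± 0.03. Unc5a, Unc5c and Unc5d differed by -0.01, 0.00 and -0.01, each with an SE of 0.04. The name rule also took in Unc5cl, a related protein (-0.02 ± 0.04), and Unc50, which is no netrin receptor (0.09 ± 0.04). Without Unc50 the counts above were 1 of 66 called and 14 at an unadjusted p under 0.05.

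Of 9 EphA receptors 7 had a higher mean in exposed animals, 6 after median centring, and none passed. Epha4, which binds ephrins of both classes and is known from dendritic spines, ran from 9.08 through a median of 9.10 to 9.22 in controls and from 9.11 through 9.24 to 9.32 in exposed animals, 4 of which lay above every control. The difference was 0.10 ± 0.04 (SE; limma adjusted p = 0.173). Epha7 varied least between animals of a group, from 8.29 to 8.40 in controls and from 8.38 to 8.46 in exposed animals, 4 of which again lay above every control, and differed by 0.07 ± 0.03 (adjusted p = 0.190). Epha10 differed by 0.07 ± 0.04 (adjusted p = 0.260), and Epha3, Epha5 and Epha6 by 0.07, 0.06 and 0.07. Epha1 and Epha8 had lower means, by -0.07 and -0.05, and Epha2, counted among the 7, was at 0.00.

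Their ligands, the 5 A-type ephrins, are tied to the membrane by a lipid. Efna5 ran from 7.17 through 7.18 to 7.30 in controls and from 7.17 through 7.31 to 7.36 in exposed animals, with 4 of 6 exposed animals above every control. It differed by 0.09 ± 0.04 (SE; limma adjusted p = 0.205). Efna1, Efna3 and Efna4, which follow one another in the order of protein-coding genes, differed by 0.01, -0.01 and -0.05, and Efna2 by -0.07.

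On the B side, 1 ligand stood out from its family in size. Efnb3, which encodes ephrin-B3, a transmembrane ligand known from the spinal midline and as an inhibitor of axon growth in myelin, ran from 8.06 through a median of 8.24 to 8.44 in controls and from 7.93 through 8.02 to 8.17 in exposed animals. Of these 3 lay below every control, and the other 3 reached no higher than 8.17, the level of control 3. The difference was -0.22 ± 0.06 (SE; limma adjusted p = 0.0613). Efnb3 passed without control 4 (-0.26, adjusted p = 0.0267) and after quantile normalization (-0.25, 0.0338). Efnb1 and Efnb2 differed by -0.02 ± 0.04 and -0.01 ± 0.05. The 4 measured EphB receptors differed by -0.06 to 0.07, with Ephb3 at 0.07 ± 0.04, Ephb4 at -0.06 ± 0.04, Ephb6, which lacks kinase activity, at 0.02 ± 0.05 and Ephb1 at -0.01 ± 0.05. Ephb2 was not analysed here.

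**Figure D3:**
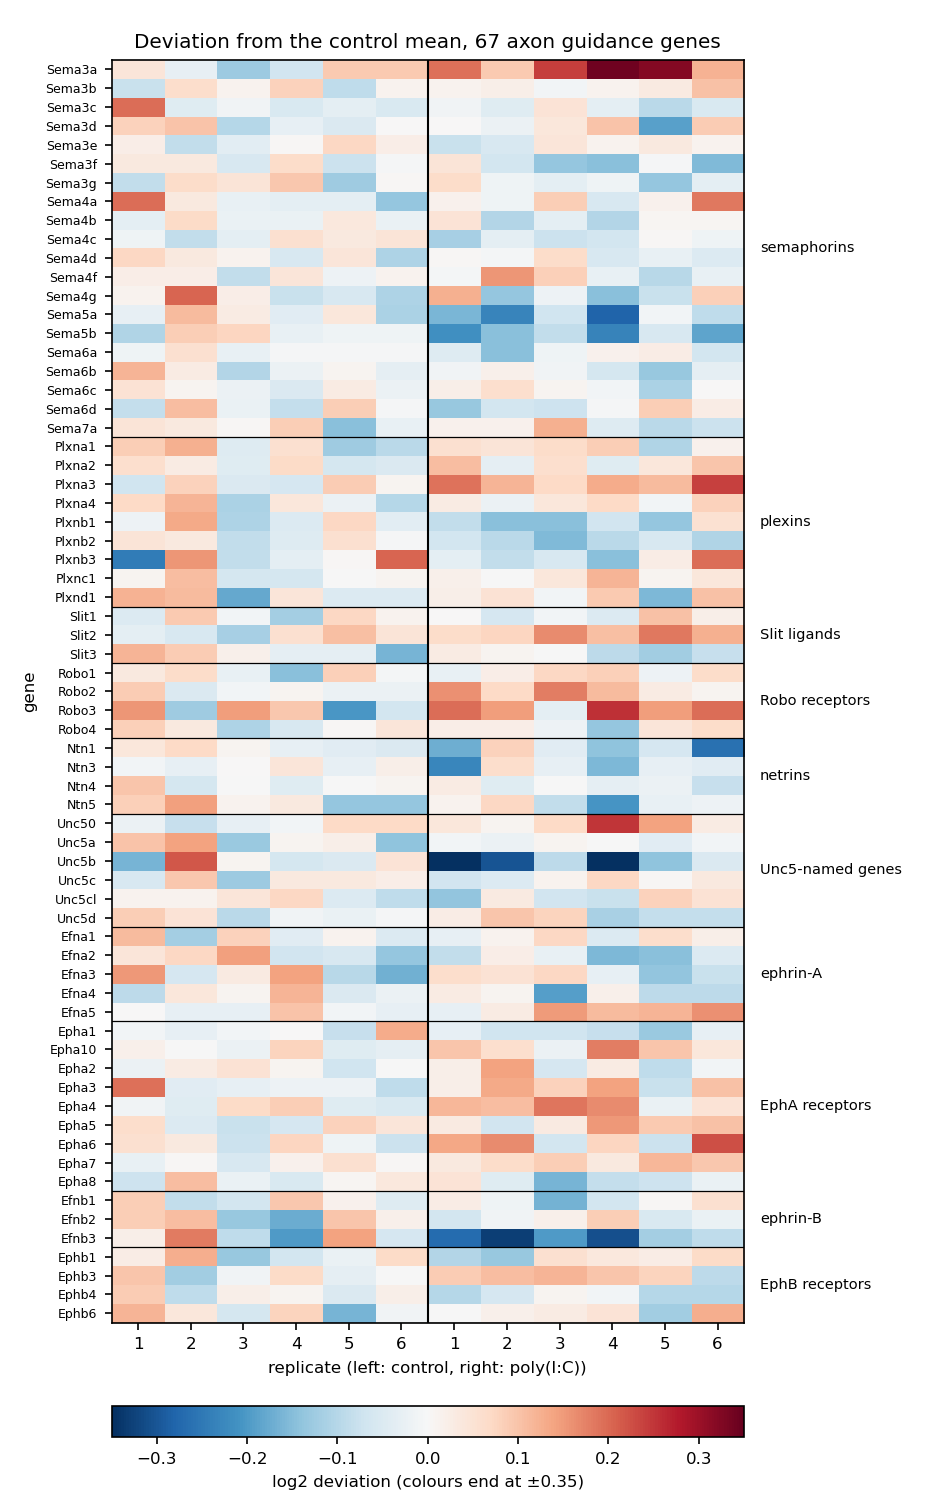
Log2 deviation of each animal (columns, by replicate number) from the control mean for the 67 guidance genes (rows, by family), red above and blue below, with colours ending at ±0.35. All 6 exposed animals lie above the control mean in Sema3a, Plxna3, Slit2, Robo2, Epha7 and Unc50. In Efnb3, Sema5b, Sema5a, Unc5b, Plxnb2 and Epha1 all 6 lie below it. Most rows show no colour that divides the groups.

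For 6 genes more than 1 probe set was available. In 5 of them, Efna3, Ephb1, Ntn3, Plxnb1 and Unc5d, the probe sets differed in sign, and none passed. The second probe set of Unc5d had a difference of 0.11 ± 0.04 (SE; limma adjusted p = 0.136) where the brighter one had -0.01, and those of Ntn3, nearly equal in brightness, gave -0.07 and 0.06. Both probe sets of Sema6b held identical values and were counted once. Averaging the probe sets of each gene gave 33 higher and 34 lower means, against 30 and 37 by the brightest probe set. Sema3a, Sema5b, Plxna3, Efnb3 and Unc5b each had 1 probe set, so no second measurement was at hand for them.

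Other genes of the same pathways were read from a list of 90, of which 80 were measured. Of these 3 passed (3.75%, beside the 2.83% background): Celsr3 and Cdk5 rose, Rgma fell and 77 did not pass. The median difference of the list was 0.02. Celsr3, an atypical cadherin needed for forebrain axon tracts, rose from 7.26 ± 0.12 to 7.50 ± 0.14 (SD, n = 6 each), or by 0.24 ± 0.06 (SE; limma adjusted p = 0.0498), with 5 of 6 exposed animals above every control. Cdk5, a kinase that acts downstream of Sema3a on collapsin response mediators, rose by 0.13 ± 0.03 (adjusted p = 0.0366). Its groups did not overlap, with a highest control of 8.98 and a lowest exposed value of 9.02. Those of Flrt2, Flrt3 and Adgrl3, which did not pass, did not overlap either, beside 2.37% of all tested probe sets. Rgma, a repulsive ligand of neogenin, fell by 0.19 on the log2 scale (SE 0.05; adjusted p = 0.0385), with 5 of 6 exposed animals below every control.

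These calls lay near the threshold, and none of the 3 passed when any of controls 1 to 3 or of exposed 1, 3 and 4 was left out. With 1 animal left out the differences themselves stayed between 0.12 and 0.15 for Cdk5 and between 0.20 and 0.27 for Celsr3. For Rgma they stayed between -0.23 and -0.17. Rgma was lost also without control 5 or control 6, Celsr3 without control 6, exposed 2 or exposed 6, and Cdk5 without exposed 5 (limma adjusted p up to 0.101). Without controls 5 and 6 together Cdk5 alone of the 3 passed, and Nck1 passed as well. After quantile normalization or median centring Rgma kept its call and Celsr3 and Cdk5 did not (adjusted p from 0.0582 to 0.0863). Next in order of p, without passing in the reported fit, were Flrt3, a ligand of Unc5 receptors and latrophilins (0.11 ± 0.03 SE; limma adjusted p = 0.0636), Nck1, an adaptor of guidance receptors (0.16 ± 0.05; 0.0642), and Ptprd, a receptor phosphatase (0.12 ± 0.03; 0.0651). Of 24 alternatives, Flrt3 passed in 1, Nck1 in 3 and Ptprd in 4.

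Lists of markers for myelin, striatum, meninges and the cortical layers each differed in 1 direction between the groups, while other lists were mixed. In a bulk sample fewer cells of a type and less RNA per cell cannot be told apart. All 11 markers of myelin and mature oligodendrocytes had lower means in exposed animals, and 5 passed the threshold. Their mean level ran from 7.15 to 7.53 in controls and from 6.74 to 7.25 in exposed animals. All 8 measured striatal markers had lower means, with 1 past the threshold (Ppp1r1b), and their mean level ran from 6.19 to 6.96 in controls and from 6.15 to 6.38 in exposed animals. The 7 deep-layer markers also had lower means, with Bcl11b past the threshold (7.39 to 7.47 against 7.09 to 7.40), and the 5 upper-layer markers higher means, none past it (8.34 to 8.44 against 8.37 to 8.59). Of 4 endothelial markers 3 had lower means and none passed (6.94 to 7.02 against 6.91 to 6.99). Of 5 astrocyte and 5 microglial markers 0 passed, and of 5 markers of oligodendrocyte precursors 1, Pcdh15, rose (0.22; limma adjusted p = 0.0219) while the other 4 had lower means and did not pass. All 5 markers of meninges had lower means and 0 passed (2 at an unadjusted p under 0.05). Higher means were found for 2 of 3 excitatory neuron, 2 of 5 inhibitory neuron and 1 of 4 pericyte and muscle markers, and 0 passed. The part of these cell types in the values of Sema3a, Sema5a, Sema5b, Plxnb2, Efnb3 and Unc5b was not tested. Controls 5 and 6 had the highest levels of the striatal markers Drd2 and Ppp1r1b. Without them the differences were 0.26 for Sema3a, -0.16 for Sema5b, -0.20 for Efnb3 and -0.26 for Unc5b. Of these genes Sema3a alone passed (limma adjusted p = 0.0217). This fit has fewer controls, left out with their marker values known, and cannot decide what part striatal tissue had.

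**Figure D4:**
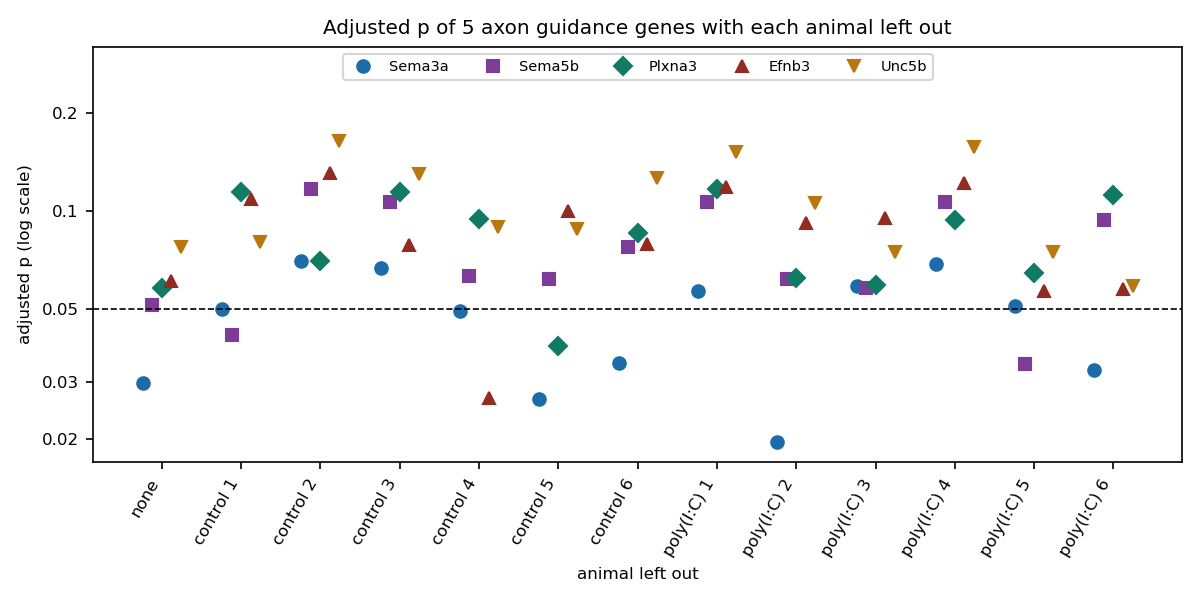
Adjusted p from limma (vertical axis, log scale) for 5 guidance genes with no animal left out and with each of the 12 left out in turn (horizontal axis); the dashed line is the 0.05 threshold. Sema3a lies below the line with all animals and in 5 of the 12 fits, Sema5b in 2, Plxna3 and Efnb3 in 1 each and Unc5b in 0.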

How the data were processed

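Total RNA of medial prefrontal cortex was hybridised to Affymetrix Mouse Gene 1.1 ST strips, per the labels' protocols. Per probe set, the authors deposited log2 expression, as the range of the values shows; the submitters' processing notes name Partek 6.6 and RMA, without order, and the genome build was not given in the sources used here. RMA-type normalization makes array distributions alike and compresses differences near the floor. The number of arrays limits the precision.

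Of 35556 probe sets, 21218 carried 1 gene symbol, 1881 several and 12457 none in the platform annotation, which can be old; 21185 single symbols found a match in RefSeq's table of GRCm38.p6 genes, used for names and gene order. The 23099 probe sets with a gene were fitted in R 4.3.3 with limma 3.58.1 (functions lmFit and eBayes), poly(I:C) against control, no covariates, two-sided, Benjamini-Hochberg adjustment over all of them, threshold 0.05. Adjusted p-values and SE come from this fit; a fold is 2 to the power of the log2 difference. No filter on dim probe sets was used. On simulated data for the 23099 probe sets 83% of probe sets shifted by 0.25 (log2) and 98% of those shifted by 0.5 were recovered, with 8 false calls. The simulation shifted only a small part of the probe sets and gave each value independent noise. It checks the fit and does not give the share recovered in these animals.

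The members, lists and alternatives were chosen with earlier results of these data known. The naming rule took genes past the threshold, members crossing it under an alternative, the 3 of lowest p in each family, the 2 of lowest p in each group of other guidance genes, and Nrp1, Nrp2, Dcc and Neo1; further members were named after their values were seen, to describe each family. Alternatives were quantile normalization, centring on array medians, weights for arrays, a block on replicate number, filters on brightness, other sets of rows, other variance estimates, averaged probe sets and fits without 1 animal or without controls 5 and 6. Plots used matplotlib 3.10.9 under Python 3.11.15.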

Additional observations from a re-analysis of the deposited data

Results flagged for a closer look

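Of 134 sets of 6 values (67 guidance genes in 2 groups), 9 held 1 animal whose gap to its nearest neighbour exceeded Dixon's critical share of the group's range for 6 samples, where chance gives about 1 in 20. Among controls, Sema3c stood at 7.45 in control 1 (next 7.24) and Epha3 at 5.44 in the same animal (next 5.23). Efna5 stood at 7.30 in control 4 (next 7.20), Epha1 at 4.5 in control 6 (next 4.37) and Sema6a at 8.16 in control 2 (next 8.10). Among exposed animals, Ephb3 stood at 6.77 in exposed 6 (next 6.94), Plxna1 at 8.77 in exposed 5 (next 8.89), Plxnc1 at 8.36 in exposed 4 (next 8.28) and Sema3b at 5.29 in exposed 6 (next 5.22). The last 2 and the first 5 were the highest of their group, the others the lowest. None of these genes passed the adjusted threshold.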

How the results depend on the processing

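The count of guidance genes called was 1 in the reported fit. Brackets below give the share of everything fitted that passed in the same fit. The count was 4 after quantile normalization (2.27%) and 3 with the replicate block (2.32%). Among the brighter probe sets (50th percentile and up) it was 4 of 48 (7.52%), and from the 25th percentile up 2 of 65 (3.98%). It was 2 with array weights (3.4%), with trend and robust variance (3.53%) and with averaged probe sets (2.84%). Over all rows of the table (1.16%) or without variance moderation (0.528%) it was 0, with 13 at an unadjusted p under 0.05 in either. With 1 animal left out it was 0 to 2. Other guidance genes called, 3 in the reported fit, were 1 with the replicate block, 1 after centring on array medians, 7 from the 50th percentile up, 0 over all rows or without moderation, and 0 to 5 with 1 animal left out. Probe sets called, 653 in all, were 414 over all rows, 122 without moderation and 230 to 818 with 1 animal left out. The median difference of the guidance genes was -0.033 after quantile normalization, against -0.01 over all tested probe sets. The causes were not tested.

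With the replicate block, numbers from the titles that are not known to pair animals (correlations of same-numbered animals from -0.0922 to 0.110, and 1 of 6 best with its own number), Sema5b and Unc5b passed as well as Sema3a (adjusted p = 0.0463, 0.0427 and 0.0437). Sign changes were limited to differences near 0: Slit1 was at -0.0017 with array weights, -0.032 after quantile normalization and -0.0081 after centring on array medians, and Ephb6, Neo1 and Nrp1 at -0.017, -0.01 and -0.0013 after quantile normalization. Without controls 5 and 6, Dcc was at 0.039, Efnb2 at 0.02 and Ephb6 at -0.027. With 1 animal left out, Slit1 ran from -0.021 to 0.021, Efnb2 from -0.043 to 0.013, Efnb1 from -0.042 to 0.0031, Ephb6 from -0.015 to 0.045, Dcc from -0.04 to 0.038, Nrp1 from -0.0033 to 0.067 and Unc5cl from -0.041 to 0.0042. With 6 arrays a group, a difference as large as -0.10 (Ntn1) had a 95% interval that reached 0.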
